A study of Mus with 9 samples.

Results

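Nrf2 and the genes it controls were examined in the hippocampus of senescence-accelerated mice given trigonelline (TG). The set holds 10 genes, chosen by symbol: Nfe2l2, which encodes Nrf2, its inhibitor Keap1, and 8 target genes (Hmox1, Nqo1, Gclc, Gclm, Slc7a11, Gsr, Txnrd1 and Srxn1). Each gene was found with 1 probe set, a group of short probes combined into a gene-level signal, among 22206 probe sets in both deposited tables.

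Nrf2 is a transcription factor that turns on genes of glutathione synthesis, thioredoxin repair, quinone detoxification and heme breakdown when a cell meets oxidants or reactive chemicals. In resting cells Keap1 holds Nrf2 in a ubiquitin ligase complex and keeps it short-lived, so that its activity is set mainly at the protein and much less at its mRNA, and the mRNA levels of its targets are the usual readout. In the brain this program is most active in astrocytes, which supply neurons with precursors of glutathione. TG, an alkaloid of coffee and fenugreek, has been described in other cell types as an inhibitor of Nrf2.

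The 3 groups were SAMR1 mice given vehicle, SAMP8 mice given vehicle and SAMP8 mice dosed orally with TG (5 mg/kg a day over 30 days), continued through 8 days of water maze testing. SAMP8 is a naturally arisen inbred strain with early memory decline, and SAMR1 is the related strain that ages normally, so the 2 strains differ at many loci and not at one engineered gene. The methods give the SAMP8 mice as males of 16 weeks, with no sex or age for SAMR1. They state no age at tissue collection, which followed dosing and testing. From each group, 3 hippocampi were hybridized to Clariom S Mouse arrays. The vehicle was water in the methods and saline in the sample records. A description attached to each record speaks of a treated macrophage line, and the series text speaks of duplicate RNA, but the titles, sources and tissue fields of all 9 records give the 3 hippocampal groups used here. In bulk tissue, fewer cells of a type and less RNA per cell cannot be told apart.

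The tables give the authors' average of 3 arrays per group as log2 signal, with no values per array and no SD. Differences between groups are therefore given as differences of averages on the log2 scale, with no error and no test across mice, and averages alone do not show whether a difference exceeds the spread between animals. A difference was set against a limit of 1.5-fold, and its place was read among the probe sets of like signal, taken as a class of 1110 or 1111 probe sets, which is 1 of 20 classes ordered by mean signal. Place is the percent of the class with a lower difference. The SAMP8 average was the same in both tables, so the strain difference and the difference with TG share the same 3 SAMP8 arrays with opposite sign. The difference between TG-treated SAMP8 and SAMR1 is the sum of both and uses the same TG and SAMR1 arrays, so the 3 comparisons are not independent of each other.

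Across the 10 genes, most averages were higher in SAMP8 than in SAMR1, and TG was followed by no common shift. Keap1 and Gclc were higher in SAMP8 by more than 1.5-fold and stayed above SAMR1 with TG. Slc7a11, the cystine transporter, was lower with TG by more than 1.5-fold, and it was the 1 member past the limit in that comparison. Of all probe sets, 11.1% were past 1.5-fold in either direction between the strains and 8.21% with TG. The 1 of 10 members with TG is thus close to the background share. Nfe2l2 itself lay at 3.76 to 3.87 in the 3 groups, at the bottom of the signal range.

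**Figure D1:**
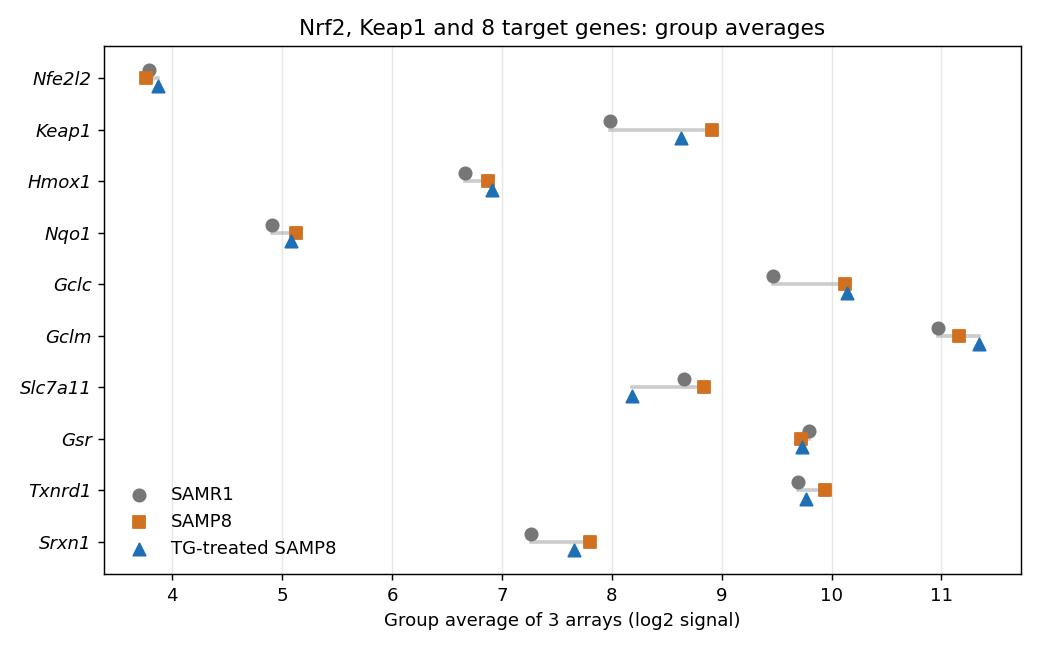
Group averages of log2 signal (horizontal axis) for Nfe2l2, Keap1 and 8 target genes (vertical axis), with 1 symbol for each group and a grey bar over the range of the 3 averages. Each point is the authors' average of 3 arrays with no error available. The widest bars are those of Keap1 (7.98 to 8.91), Gclc (9.47 to 10.14) and Slc7a11 (8.18 to 8.84), and positions of different genes on the axis are not comparable, because probe sets differ in brightness.

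The regulators come first. Nfe2l2, on chromosome 2 from 75675513 to 75704663 in the mouse build GRCm38, had averages of 3.79 in SAMR1, 3.76 in SAMP8 and 3.87 with TG. These values differed by at most 0.11 log2. Of all probe sets, 12.9% had a lower mean signal than that of Nfe2l2. As a yardstick chosen after these values were seen, the 1079 probe sets of olfactory receptor genes, whose expression is chiefly olfactory, had a median signal of 4.05, and 34.5% of them lay below Nfe2l2. The probe set of Nfe2l2 thus read within the range of genes with little use in this tissue, and a difference in Nrf2 mRNA may not be detectable at such a signal. The other 9 members were brighter than at least 90.1% of the olfactory receptor probe sets, with Nqo1, still within their range, the dimmest of them.

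**Figure D2:**
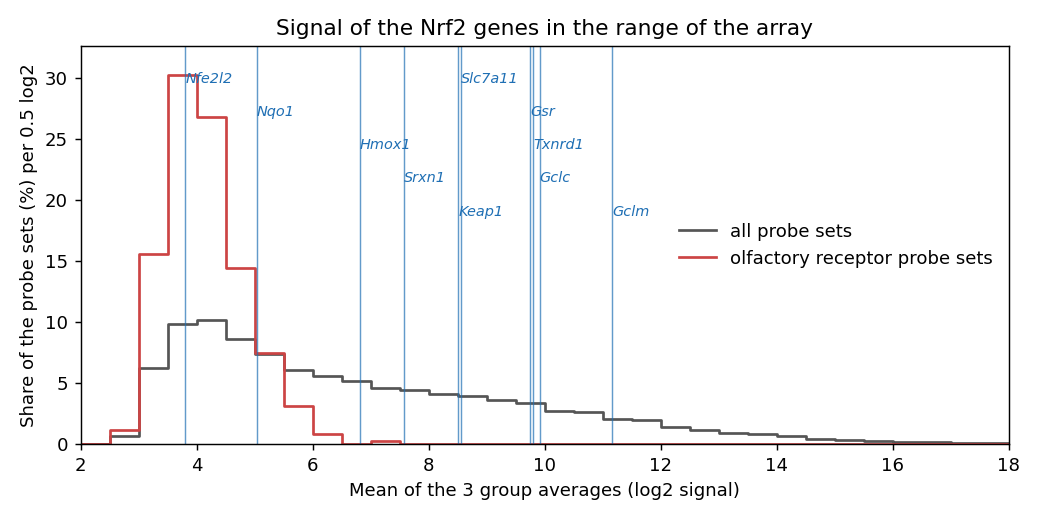
Share of probe sets (vertical axis, % per bin of 0.5 log2) by the mean of the 3 group averages (horizontal axis, log2 signal), for all probe sets and for 1079 olfactory receptor probe sets, with a vertical line at each member. Nfe2l2, at 3.81, falls among the olfactory receptors, of which 95% lie below 5.37, Nqo1 lies at their upper edge at 5.04, and the other 8 members lie further right.

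Keap1, the adaptor that binds Nrf2 and marks it for breakdown, lies on chromosome 9 from 21229730 to 21239332. It averaged 7.98 in SAMR1, 8.91 in SAMP8 and 8.63 with TG. The SAMP8 average was 0.93 log2 above that of SAMR1, a 1.91-fold difference and the widest of the members in any comparison. Its place was 98.2 among probe sets of like signal. With TG, Keap1 was 0.28 log2 below SAMP8, at place 23.8, and remained 0.65 log2 above SAMR1. The averages of TG-treated SAMP8 therefore lay between those of the other groups, closer to SAMP8.

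The 4 genes of glutathione synthesis and supply did not follow one pattern. Gclc, the catalytic subunit of glutamate-cysteine ligase, the rate-limiting enzyme of glutathione synthesis, lies on chromosome 9 from 77754535 to 77794489. It averaged 9.47 in SAMR1, 10.12 in SAMP8 and 10.14 with TG. SAMP8 was 1.57-fold above SAMR1 (0.65 log2, place 92.6), and the step with TG was 0.02 log2. Gclm, the modifier subunit of the same ligase, averaged 10.97, 11.16 and 11.34 in that order of groups. Its difference with TG, 0.18 log2 at place 78.3, was the highest of the members in that comparison and equals 1.13-fold. Both subunits were thus higher in each SAMP8 group than in SAMR1, Gclc past the limit and Gclm short of it.

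Slc7a11, the exchanger that takes up cystine for glutathione in return for glutamate, lies on chromosome 3 from 50364936 to 50499087. It averaged 8.66 in SAMR1, 8.84 in SAMP8 and 8.18 with TG. With TG it was 0.66 log2 below SAMP8, a 1.58-fold difference at place 4.4, so that 4.4% of the probe sets of like signal had a lower difference. Its TG average was also 0.48 log2 below that of SAMR1 (place 8.1), a difference that rests on the same 3 TG arrays. Gsr, the reductase that returns oxidized glutathione to its reduced form, averaged 9.79, 9.72 and 9.73 in SAMR1, SAMP8 and TG-treated SAMP8. Its averages lay within 0.07 log2 of each other, the narrowest range of the 10 genes.

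The heme and quinone enzymes were close together in both SAMP8 groups. Hmox1, heme oxygenase 1, which breaks down heme and is among the most inducible Nrf2 targets, averaged 6.66 in SAMR1, 6.87 in SAMP8 and 6.91 with TG. Its difference was 0.21 log2 between the strains and 0.04 log2 with TG. Nqo1, the quinone reductase often taken as the standard readout of Nrf2 activity, averaged 4.91, 5.13 and 5.08. It was 0.22 log2 higher in SAMP8 than in SAMR1, at place 82.8, and 0.05 log2 lower with TG. Neither enzyme came near the limit of 1.5-fold in any comparison, and the widest difference of the pair was 0.25 log2, for Hmox1 in TG-treated SAMP8 vs SAMR1.

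The 2 genes of thiol repair had the same order of groups. Txnrd1, the cytosolic thioredoxin reductase, averaged 9.69 in SAMR1, 9.94 in SAMP8 and 9.77 with TG. Srxn1, sulfiredoxin, which restores overoxidized peroxiredoxins, averaged 7.26, 7.80 and 7.66. Srxn1 was 0.54 log2 higher in SAMP8, or 1.45-fold at place 88.6, just inside the limit. Gclc, at 1.57-fold, was the member just past it. With TG, Txnrd1 was lower by 0.17 log2 and Srxn1 by 0.14 log2, with places of 35.9 and 39.1.

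Between the strains, 8 of 10 members were higher in SAMP8 and 2 were lower (Nfe2l2 and Gsr, by 0.03 and 0.07 log2). Past 1.5-fold, 2 were higher (Keap1 and Gclc) and 0 lower, where 5.0% of all probe sets were higher and 6.08% lower by as much, together 11.1%. In the signal classes of Keap1 and Gclc, 10.27% and 9.81% of the probe sets were higher by 1.5-fold. The median difference of the members was 0.21 log2, and that of all probe sets was 0.00. Part of this offset was shared by other probe sets of like signal, whose median differences in the classes of the members ran from -0.09 to 0.14 log2. Against the median of its own class, 9 of 10 members were higher and 1 (Gsr) was lower, with a median of 0.14 log2. For Gclm, Slc7a11 and Txnrd1 what remained was 0.07, 0.04 and 0.11 log2, while for Keap1, Gclc, Srxn1 and Nqo1 it was 0.79, 0.51, 0.44 and 0.31 log2. Nqo1 lay within the signal range of the olfactory receptors. Nfe2l2, also within that range, is counted among the 9 at 0.06 log2, although its difference itself was -0.03 log2. These are differences of single averages, and the strain difference carries no error here.

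With TG, 5 of 10 members were higher and 5 lower than in SAMP8, or 4 and 5 without the dim Nfe2l2, with a median of -0.05 log2. Past 1.5-fold, 0 were higher and 1 was lower (Slc7a11), where 4.48% of all probe sets were higher and 3.74% lower by as much. In either direction 8.21% of all probe sets were past the limit, so 1 of 10 members is close to the background share. The median difference was -0.02 log2 for all 10 members and 0.01 log2 for all probe sets. Apart from Slc7a11, the members lay between -0.28 log2 (Keap1) and 0.18 log2 (Gclm). Against the median of the signal class, 5 members were higher and 5 lower, and the median was -0.02 log2. The 8 target genes were split as 4 higher and 4 lower, so the averages show neither a joint fall nor a joint rise of these 8 genes with TG. Other genes of the pathway are given below.

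**Figure D3:**
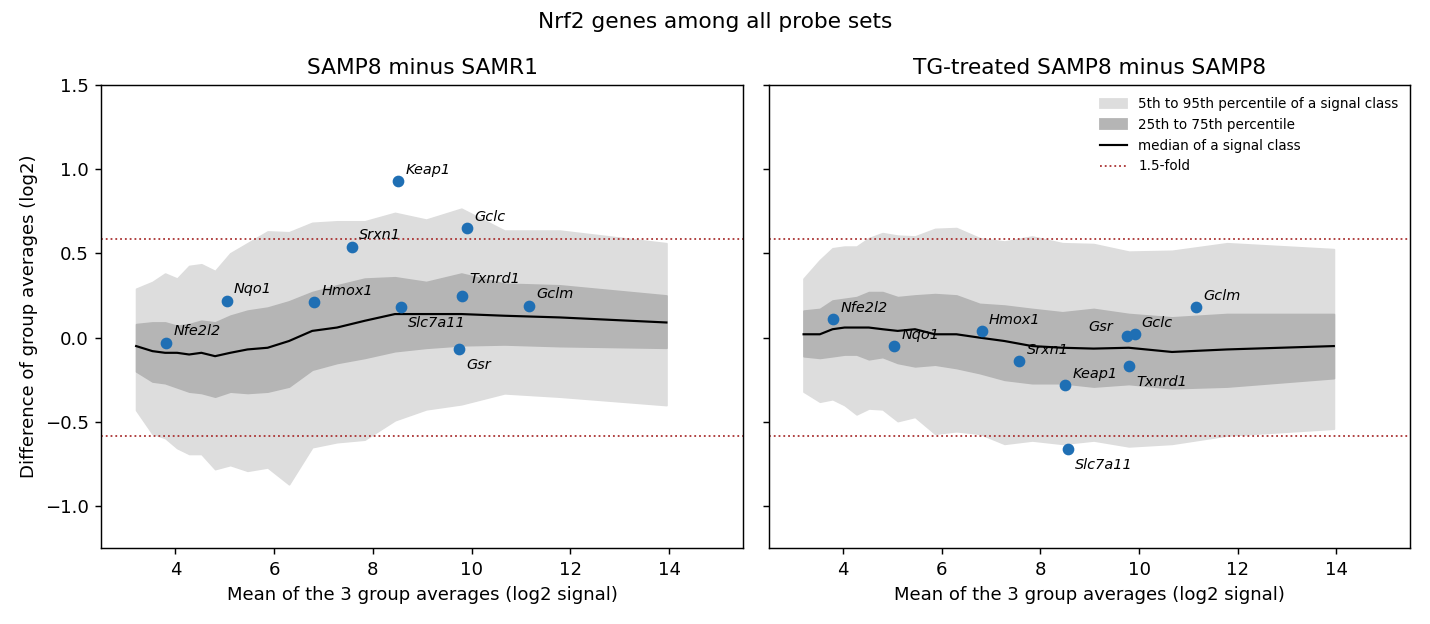
Difference of group averages (vertical axis, log2) against the mean of the 3 averages (horizontal axis, log2 signal) for SAMP8 minus SAMR1 (left) and TG-treated SAMP8 minus SAMP8 (right). Points are the members, the black line is the median of all probe sets in 20 classes of signal, the bands span the 25th to 75th and the 5th to 95th percentile of a class, and dotted lines mark 1.5-fold. On the left Keap1 lies above the band at 0.93, and on the right Slc7a11 lies just below it at -0.66 while the other members lie inside it. The 2 panels share the SAMP8 arrays.

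TG-treated SAMP8 was also set against SAMR1, with the TG and SAMR1 arrays of the other comparisons. Here 8 of 10 members were higher in TG-treated SAMP8 and 2 lower (Slc7a11 and Gsr). Keap1 (0.65 log2) and Gclc (0.67 log2) were past 1.5-fold upward and 0 were past it downward, where 5.62% of all probe sets were higher and 4.83% lower by as much, together 10.5%. In the signal classes of Keap1 and Gclc, 10.27% and 10.26% of the probe sets were higher by 1.5-fold here. The median was 0.21 log2, beside -0.01 log2 for all probe sets. Gclm (0.37 log2) and Srxn1 (0.40 log2) were the next highest.

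Another 48 genes of the pathway were listed by role, and all 48 were found. With TG, 5 of these were past 1.5-fold upward, a larger share than the 4.48% of all probe sets. Downward it was 1, beside 3.74% of all probe sets. In all, 28 were higher and 20 lower with TG, and the median difference was 0.05 log2, against 0.01 log2 for all probe sets. Between the strains, 2 were past 1.5-fold upward and 0 downward, no larger a share than the 5.0% and 6.08% of all probe sets, with 23 higher and 23 lower and a median of 0.00 log2. In TG-treated SAMP8 vs SAMR1, 6 were past the limit upward, a larger share than the 5.62% of all probe sets. Downward it was 1, beside 4.83% of all probe sets. These shares were compared without a test.

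Of the 6 genes past the limit with TG, 4 were on the list of proteins that use glutathione. Gpx4, the peroxidase that removes lipid hydroperoxides in membranes with glutathione, averaged 10.32 in SAMR1, 10.47 in SAMP8 and 11.58 with TG, a difference with TG of 1.11 log2. Gstm5 and Gstm1, glutathione transferases of the mu class, were higher with TG by 0.87 and 0.65 log2. Gstm1 belongs to a family of closely similar genes, and signals of its members can be shared between probes. Gpx1, the peroxidase that removes hydrogen peroxide with glutathione, averaged 8.61, 9.06 and 9.57 in SAMR1, SAMP8 and TG-treated SAMP8. It was short of the limit with TG (0.51 log2) and between the strains (0.45 log2), and past it in TG-treated SAMP8 vs SAMR1 (0.96 log2, place 97.6). In the opposite direction, Abcc1, a pump that exports glutathione conjugates, averaged 6.37, 7.17 and 6.37 in SAMR1, SAMP8 and TG-treated SAMP8. Its SAMP8 average was thus 0.80 log2 above that of either other group, and both differences rest on the same 3 SAMP8 arrays. Of the 14 genes of this list, 7 were higher and 7 lower with TG, 3 and 1 of them past the limit, and the list's median was -0.01 log2. Past 1.5-fold with TG, the shares of all probe sets were 4.48% higher and 3.74% lower. Gss and Glrx, short of the limit, were higher by 0.57 and 0.51 log2. Apart from Abcc1, the lowest gene was Mgst1 at -0.28 log2. The list's median thus did not shift, but its larger differences were mostly upward.

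In the thioredoxin list, Txn1, Prdx6 and Prdx1 were higher with TG by 0.31, 0.27 and 0.11 log2, all short of the limit. Prdx1, a peroxiredoxin that reduces hydrogen peroxide, averaged 11.81, 12.49 and 12.60 in SAMR1, SAMP8 and TG-treated SAMP8. It was thus past 1.5-fold between the strains (0.68 log2) and also in TG-treated SAMP8 vs SAMR1 (0.79 log2). Like Gclc, it was high in both SAMP8 groups and hardly differed between them.

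Among the partners, repressors and turnover factors, 1 of 13 was past the limit with TG. Mafg, a small Maf protein that pairs with Nrf2 on DNA, averaged 6.52, 6.22 and 6.82, which is 0.60 log2 higher with TG. Cul3, the scaffold of the ligase that Keap1 serves, had the lowest difference of the list, -0.27 log2. Maff and Mafk, the other small Maf genes, differed by 0.01 and -0.11 log2 with TG. Their mean signals were above 19.5% and 77.0% of the olfactory receptor probe sets. Both thus lay within that range, where a difference may not be detectable. Bach1, a repressor that competes for the same DNA sites, was 0.48 log2 higher in SAMP8 and 0.07 log2 lower with TG. The list's median was 0.01 log2 with TG and -0.04 log2 between the strains.

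The remaining lists held few genes past the limit. Of 6 detoxification genes, 5 were higher with TG, and Cbr3, a carbonyl reductase, was past the limit at 0.61 log2, with averages of 4.48, 4.63 and 5.24. Its mean signal was above 82.9% of the olfactory receptor probe sets and so within their range. Ptgr1 and Osgin1, also among the 5, were dimmer still, above 44.6% and 3.2% of those probe sets. Aox1, an aldehyde oxidase, had the lowest difference of that list, -0.10 log2. Among 6 genes of iron and heme, 0 were past the limit with TG. Ftl1, ferritin light chain, was highest at 0.53 log2 and Slc48a1, a heme transporter, lowest at -0.25 log2. In TG-treated SAMP8 vs SAMR1, Ftl1 was 0.65 log2 higher and Slc40a1, the iron exporter ferroportin, 0.61 log2 lower, both past the limit. A further probe set that names Ftl1 among several symbols was not read. Of 6 genes that supply NADPH, the reductant for glutathione and thioredoxin reductases, 0 were past the limit in any comparison. With TG they ran from -0.52 log2 for Me1, malic enzyme, to 0.49 log2 for Taldo1, transaldolase.

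**Figure D4:**
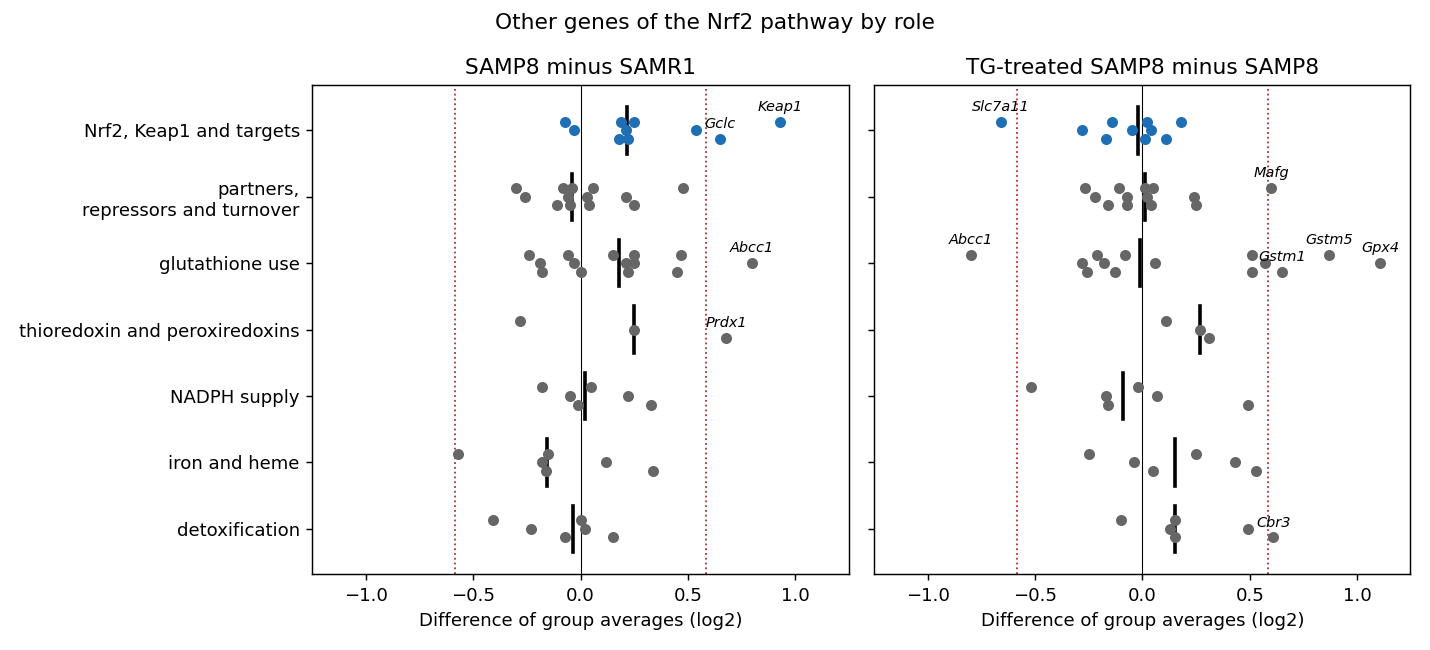
Difference of group averages (horizontal axis, log2) for SAMP8 minus SAMR1 (left) and TG-treated SAMP8 minus SAMP8 (right), for the 10 members (blue) and 6 lists of other pathway genes (grey, vertical axis). Each point is a gene, black bars are list medians, dotted lines mark 1.5-fold, and genes past it are named. With TG, Slc7a11 at -0.66 is the 1 member past the line, and the glutathione list holds both the highest (Gpx4, 1.11) and the lowest gene (Abcc1, -0.80). The 2 panels share the SAMP8 arrays.

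Markers of the tissue and of other cell types were read beside these results. Past 1.5-fold, the shares of all probe sets higher and lower were 5.0% and 6.08% between the strains and 4.48% and 3.74% with TG. The 11 markers of hippocampal neurons all lay above at least 49.3% of all probe sets. Of these, 2 were past 1.5-fold downward with TG, with Prox1 the lowest at -0.85 log2, and 1 upward (Nrgn, 0.84 log2). Between the strains, 8 of the 11 were higher in SAMP8 and 4 were past the limit upward (Spink8 at 1.30, Nrgn at 0.83, Calb1 at 0.70 and Prox1 at 0.59 log2), with a median of 0.25 log2. Of 9 astrocyte markers, 8 were higher in SAMP8 than in SAMR1, 3 of them past 1.5-fold, and their summed signal was 18.75 in SAMR1, 18.88 in SAMP8 and 19.0 with TG on the log2 scale. The brightest marker, Slc1a2, was nearly level (18.36, 18.40 and 18.37), and the rise of the sum mainly follows Aldoc (16.30, 16.76 and 17.28). With TG, 6 of the 9 were lower and 0 were past the limit, with a lowest difference of -0.55 log2 (Gjb6) and a highest of 0.58 log2 (S100b). Of 8 microglial markers, 4 were higher and 4 lower in SAMP8 than in SAMR1, with 3 past the limit upward, Aif1 the highest at 1.51 log2, and 1 downward. The part of neurons, astrocytes or microglia in the strain differences of Keap1 and Gclc, and of astrocytes in that of Slc7a11 with TG, was not tested.

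Of 8 endothelial markers, 7 were lower with TG and 1 higher (Vwf, 0.06 log2), with a median of -0.28 log2 and a lowest value of -0.96 log2 for Slc2a1, the glucose transporter of the vessel wall. Their summed signal was 13.0 in SAMR1, 13.76 in SAMP8 and 12.94 with TG. Of 10 meningeal markers, 3 were past 1.5-fold downward with TG and 0 upward, beside 3.74% and 4.48% of all probe sets. These markers ran from -1.10 log2 (Ogn) to 0.46 log2 (Lum), but 5 were higher and 5 lower and the median was -0.02 log2. Their summed signals of 11.22, 10.94 and 10.38 follow the brightest marker, Dcn (10.66, 10.15 and 9.38), as the endothelial sum follows Slc2a1 (12.34, 13.45 and 12.49). The part of either cell type in the difference of Slc7a11 with TG was not tested. Microglial markers ran from -0.44 log2 (Aif1) to 0.67 log2 (C1qa) with TG, with 5 of 8 lower. Oligodendrocyte markers were higher with TG in 7 of 8, with a median of 0.34 log2 and a highest value of 0.71 log2 (Mag and Cldn11). Choroid plexus markers ran from -0.79 log2 (Kl) to 0.72 log2 (Ttr), with 5 of 9 lower. Erythroid markers ran from -0.42 log2 (Hbb-bt) to 0.44 log2 (Alas2), with 3 of 5 probe sets lower, since Hba-a1 and Hba-a2 share one.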

How the data were processed

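Arrays were scanned, and the authors summarized and normalized them by SST-RMA in the Transcriptome Analysis Console (version 4.0.1 in the series text, a later release in the methods) with the array maker's annotation on mm10. Per the file headers, the 2 deposited tables hold the group averages as log2 signal. Their other columns, the authors' fold changes and p-values, were not used, and the genes were not taken in the order of the tables. Differences of averages, counts past 1.5-fold and places among 20 classes of signal were computed in Python 3.11.15 with numpy 2.4.6 and pandas 2.3.3, and the code was tested on simulated data. No test across arrays was run, because the averages carry no spread. The number of arrays limits the precision.

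Probe sets were matched by gene symbol. Of 48 pathway and 69 marker genes all were found, 1 and 5 of them among several symbols of a probe set. A probe set with the gene as its only symbol was preferred, which left out a further probe set of Ftl1. Among several probe sets matched in the same way, the brightest was used. Named by rule were all members, pathway genes past 1.5-fold in any comparison, and the highest and lowest gene of each list with TG, of which 1 is not reported here. Prdx6, Maff, Mafk, Bach1, Gss, Glrx, Mgst1, Ptgr1 and Osgin1 of the pathway were added after their values were seen. So were the markers with strain values, Dcn, Slc1a2, Aldoc, olfactory receptors and chromosomal neighbours. Members and lists were chosen with earlier results of these data known. Positions are from RefSeq for GRCm38.p6. Sequences of these genes were not used here. Alternatives were the fold limit, centring, the probe set, the signal classes and a filter on low signal.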

Additional observations from a re-analysis of the deposited data

How the results depend on the processing

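No paired analysis was possible because the tables hold group averages and not arrays, and for the same reason no replicate could be left out. Each member has 1 probe set and the SAMP8 averages of both tables are identical, so using all probe sets of a gene or the other table's SAMP8 average could not alter a member's value. Centring moved a difference by at most 0.01 log2 and changed no count of members or pathway genes past the limit. Leaving out the lowest 25% of probe sets by signal, run for the pathway counts, changed none of them.

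The counts depend on the limit itself. At 1.2-fold, 2 members were lower with TG (Slc7a11 and Keap1), and 4 were higher and 1 lower in TG-treated SAMP8 vs SAMR1. For the pathway genes at 1.2-fold, the counts higher and lower were 14 and 4 with TG, 7 and 4 between the strains, and 16 and 5 in TG-treated SAMP8 vs SAMR1. At that limit the shares of all probe sets higher and lower were 19.6% and 18.5% with TG, 20.4% and 20.4% between the strains, and 20% and 20.5% in TG-treated SAMP8 vs SAMR1. At 2-fold, 0 members were past the limit in any comparison, and the pathway counts were 1 higher (Gpx4) and 0 lower with TG, 0 higher between the strains, and 2 higher and 0 lower in TG-treated SAMP8 vs SAMR1. The shares of all probe sets higher and lower by 2-fold were 0.473% and 0.342% with TG, 0.838% and 1.47% between the strains, and 1.13% and 0.712% in TG-treated SAMP8 vs SAMR1.

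Read among all probe sets in place of those of like signal, the places of Gclm, Slc7a11 and Txnrd1 in SAMP8 vs SAMR1 were 72.8, 71.8 and 78.4, against 58.7, 57.0 and 63.7. Those of Nfe2l2 and Gsr were 45.4 and 40.1, against 57.8 and 22.5. The promoter motif was not searched, because no promoter sequence was used here.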

Other observations

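The genes beside Keap1 on the chromosome were read because the strains differ at many loci. Of the 5 nearest genes on each side with 1 probe set, over 265 kb, 0 of 10 were past 1.5-fold between SAMP8 and SAMR1 in either direction. They ran from -0.11 log2 to 0.58 log2 (Cdkn2d, at the edge of the limit), beside 0.93 log2 for Keap1. Between the strains, 5.0% of all probe sets were higher and 6.08% lower past the limit, so 0 of 10 is near the background share. In TG-treated SAMP8 vs SAMR1, 1 of the 10 was past the limit upward, Cdkn2d at 0.93 log2, above the 0.65 log2 of Keap1. Of all probe sets, 5.62% were higher by as much in that comparison. Around Gclc, 2 of 10 neighbours were higher past the limit in SAMP8 (Mlip, 1.18 log2, and Lrrc1, 0.71 log2) and 0 lower, and the median of the 10 was -0.01 log2. Around Slc7a11, 0 of 10 neighbours were lower past the limit with TG and 2 were higher (Ndufc1, 0.65 log2, and D3Ertd751e, 0.59 log2). With TG, 3.74% of all probe sets were lower and 4.48% higher by as much, so 0 of 10 lower is near the background share. These neighbours were chosen by position after the values of the members were seen.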
